A study of Mus musculus with 7 samples.

Results

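Over both mice together, Macrophages_1 is the larger of the 2 clusters that the authors of the study named macrophages in the WT pancreas. In the mouse WT 1 it was the smaller, with 45 cells against 59. Its members were all cells carrying that cluster name in the deposited cell annotation: 463 of the 10653 WT cells and of the 58473 cells of the whole series. They came from 2 mice, with 45 cells from WT 1 and 418 from WT 2. Their depth was 281197 and 1005840 unique molecular identifiers (UMIs, each counting 1 captured RNA molecule). The working description of these cells was dendritic-like, from H2-Eb1, H2-Ab1, Mgl2 and Cd74. The data went against it. These 4 genes were high, but the cells also carried the macrophage markers, and the dendritic cell genes Flt3, Xcr1 and Clec9a were at or near 0. Other genes of the dendritic cell lists, such as Cst3 and Clec10a, were present. The cluster is therefore called by its name. The C1q genes were among its leading genes, and MHC class II was high in it but not among them.

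Single-cell RNA was measured with 10x Genomics 3′ libraries, 1 library per mouse, in whole dissociated pancreas of C57BL/6 mice aged 2 months (the i4F line is given in the methods as C57BL/6J.Ola.Hsd). The 2 WT mice were wild type and drank doxycycline at 1 mg/ml with sucrose for 7 days, as did 3 i4F mice. The i4F-B mice carry, as heterozygotes, a doxycycline-inducible cassette of the reprogramming factors Oct4, Sox2, Klf4 and Myc, inserted in Pparg, and the transactivator rtTA in Rosa26, and neither is restricted to 1 cell type. The 2 caerulein mice were wild type, are not labelled as given doxycycline, and received the secretagogue caerulein at 100 µg/kg in 7 hourly injections on each of 2 days. The authors clustered each condition apart, so a cluster of the same name need not hold the same cells in another condition. The rtTA transcript was read with 2571, 1824 and 722 UMIs in the i4F libraries, and with 1 to 16 UMIs in each WT and caerulein library. The WT 2 cells shared 3 barcodes with another library and the WT 1 cells shared 0. The mice are the replicates, so p-values between conditions rest on 2 or 3 mice a group.

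Tissue macrophages take up debris and dying cells, and make C1q, the recognition unit of the classical complement pathway, from the genes C1qa, C1qb and C1qc. MHC class II molecules (the H2-A and H2-E chains) present peptides to CD4+ T cells. Cd74 holds the new chains until H2-DM exchanges its fragment for a peptide, and Ciita switches these genes on. Dendritic cells also carry MHC class II and depend on the receptor Flt3, and macrophages depend on the receptor Csf1r.

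Macrophages_1 made up 1.04% of the WT 1 cells (45 of 4327, exact 95% binomial interval 0.76 to 1.39%) and 6.61% of the WT 2 cells (418 of 6326, 6.01 to 7.25%). The mean was 3.82% ± 3.94 (SD, n = 2), and the share was 6.35 times higher in WT 2. Macrophages_2 had near equal shares of 1.36% and 1.52%. These intervals cover counting error only, and the share was not tested. The cells of WT 1 were deeper, with a median of 4766 UMIs against 2010.

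All 3 C1q genes, neighbours on chromosome 4 (C1qa at chr4:136895917-136898803 of GRCm38), set the cluster apart from Macrophages_2. Levels are given as CPM, the UMIs of a gene scaled to a common total of UMIs per mouse and cluster. C1qa was at 6284 and 6146 CPM in WT 1 and WT 2, against 143 and 2.13 in Macrophages_2 and 13.9 and 24.6 in the other WT cells. C1qb was at 7159 and 6650 against 151 and 40.5, where 1 cell held all 56 UMIs of Macrophages_2 in WT 1. C1qc was at 3606 and 3019 against 75.7 and 4.27. In each mouse all 3 genes were far above both references. The clusters were made from these same genes, so levels are described here and not tested. A log2 ratio below is of CPM with 20 added to each, and a gene counts as higher or lower where it differs at least 2-fold in both mice, among genes with at least 10 UMIs over both sides in each mouse. A gene near 0 on one side that passed through the other could count in 1 direction only. Except against the other WT cells, list counts therefore carry the number with at least 10 UMIs in every mouse on both sides. Only for these members was the direction not largely fixed by the filter.

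Of 5634 genes, 247 (4.38%) were higher in Macrophages_1 than in Macrophages_2 and 162 (2.88%) were lower. The 10 leading genes were Pf4, C1qb, C1qa, C1qc, Ms4a7, Ccl12, Apoe, Ccl7, Folr2 and Cbr2. Pf4, a chemokine also stored in platelets, had log2 ratios of 6.48 and 6.57. Apoe, a lipid carrier, was at 8268 and 18508 CPM against 425 and 567. Against all other WT cells, 488 of 16491 genes (2.96%) were higher and 1048 (6.35%) lower, or 592 and 808 with TMM scaling. The leading genes there were again the C1q genes with Pf4, the chemokines Ccl4, Ccl3 and Cxcl2, the lysozyme gene Lyz2, Tnf and Fcer1g. Igkc, Krt18, Iapp, Krt8 and Tm4sf4, genes of B cells, epithelium and islets, led in the other direction. Other settings moved the counts of both comparisons further, as given at the end.

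**Figure D1:**
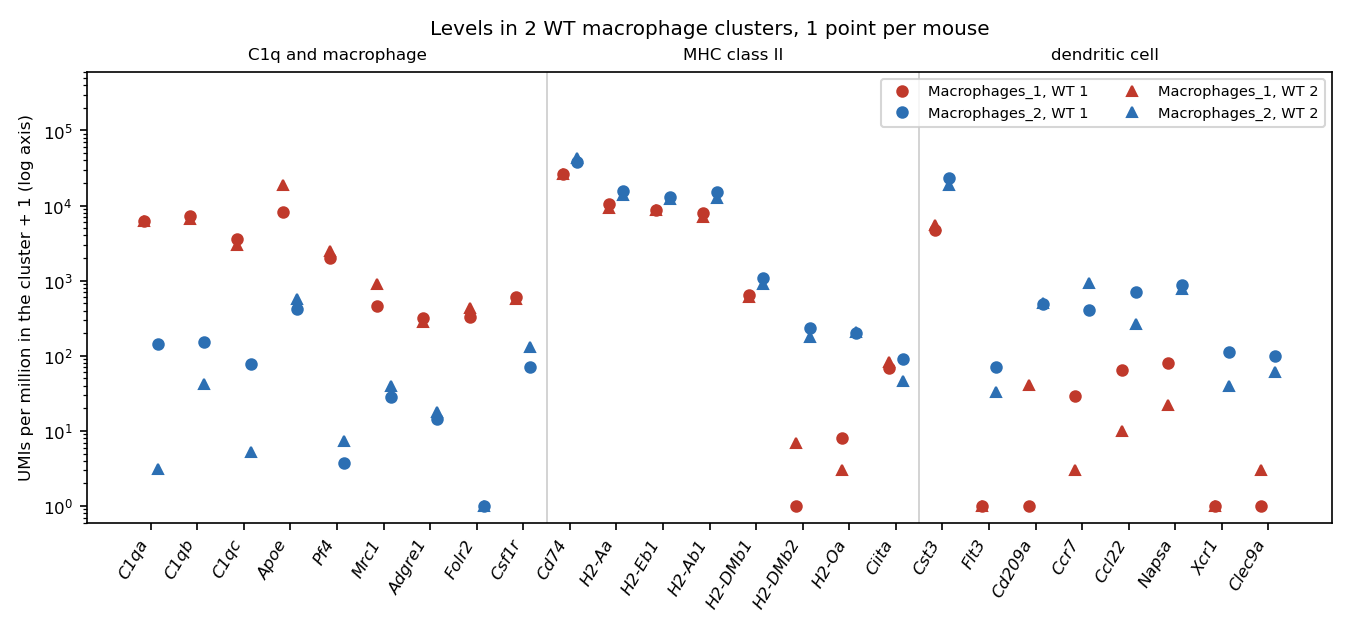
CPM plus 1 (log axis) of selected genes in Macrophages_1 (red) and Macrophages_2 (blue), with WT 1 as circles and WT 2 as triangles. The C1q and other macrophage genes lie higher in Macrophages_1, the main MHC class II genes somewhat lower, and the dendritic cell genes far lower.

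Of the 19 genes of the macrophage list, 18 had enough UMIs against Macrophages_2. Of these, 16 were higher and 0 lower, and 6 of the 16 had 10 UMIs on both sides, among them C1qb, Csf1r, Mrc1 and Apoe. Adgre1, which encodes the F4/80 antigen, was at 313 and 278 CPM against 13.5 and 17.1. Csf1r was at 605 and 565 against 70.3 and 130. Mrc1, the mannose receptor CD206, was at 466 and 897 against 27 and 38.4. Folr2, a folate receptor, was at 331 and 432 and had no UMI in Macrophages_2, where 3 UMIs would be 8.11 and 6.4 CPM. None of these genes overlapped between the clusters. Timd4, a receptor for dying cells, was at 14.2 and 68.6 against 43.3 and 21.3 and did overlap, and Vsig4 had no UMI in either cluster.

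The dendritic cell genes lay on the other side. Of the 10 general conventional dendritic cell genes, 9 had enough UMIs, 0 were higher in Macrophages_1 and 7 were lower. Of the 7, Flt3, Dpp4 and Bcl11a passed only through Macrophages_2, and Cd24a, Traf1, Napsa and Cst3 had 10 UMIs on both sides. Flt3 had no UMI in Macrophages_1 of either mouse, where 3 UMIs would be 10.7 and 2.98 CPM, and was at 70.3 and 32 in Macrophages_2. Xcr1, the chemokine receptor of type 1 dendritic cells, also had none, and was at 111 and 38.4 in Macrophages_2. Clec9a, a receptor of the same cells, was at 0 and 1.99 against 97.4 and 59.7. Cd209a, a lectin of type 2 dendritic cells, was at 0 and 39.8 against 492 and 499. Ccr7, which leads dendritic cells to lymph nodes, was at 28.4 and 1.99 against 400 and 930. Lists of type 1 and of migratory dendritic cells held 7 of 10 and 5 of 9 lower genes, of which 3 (Irf8, Naaa and Ppt1) and 0 had 10 UMIs on both sides. The type 2 list held 3 lower genes of 8, all 3 passing only through Macrophages_2, and 1 higher, Sirpa, which macrophages also express. Its members Mgl2 (434 and 407 against 411 and 525) and Clec10a (110 and 309 against 254 and 166) overlapped between the clusters. Against the other WT cells, where 2.96% of all genes were higher and 6.35% lower, the lists were mixed. Of 11 type 2 genes, 4 were higher (Mgl2, Clec10a, Sirpa and Tnip3) and 1 lower. Of 10 general genes, 2 were higher (Traf1 and Cst3) and 2 lower. Of 12 type 1 genes, 2 were higher (Batf3 and Irf8) and 0 lower. Of 13 migratory genes, 2 were higher (Ccl5 and Cd40) and 1 lower.

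Genes led by Il1r2, Il12b, Napsa, Ccl22, Cd209a, Ccr7, H2-Oa, S100a9, Itgb7 and H2-DMb2 were the most lowered relative to Macrophages_2. S100a9, a neutrophil gene, was at 611 and 141 CPM in Macrophages_2, from 6 and 2 cells, and had no UMI in Macrophages_1. The UMIs of Il12b in Macrophages_2 likewise came from 5 and 6 cells.

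Summed over the cells, MHC class II was high in both clusters, and higher in Macrophages_2. H2-Ab1, the beta chain of H2-A (chr17:34257689-34269419), was at 7863 and 7069 CPM in Macrophages_1, 15358 and 12646 in Macrophages_2 and 429 and 384 in the other WT cells. H2-Aa, its alpha chain, was at 10516 and 9203 against 15466 and 13817 in Macrophages_2. H2-Eb1 was at 8702 and 8628 against 13116 and 12366. Cd74 was at 25989 and 26572 against 38033 and 43284. Each lay below Macrophages_2 in both mice, but by less than 2-fold, with log2 ratios between -0.96 and -0.52. Of the 13 genes of the MHC class II list, 12 had enough UMIs, 0 were higher and 4 were lower than in Macrophages_2: H2-DMb2, H2-Oa and H2-Ob, which passed only through Macrophages_2, and Ifi30. H2-Oa and H2-Ob encode H2-O, which restrains H2-DM in B cells and some dendritic cells. H2-Oa was at 7.11 and 1.99 against 200 and 209. H2-DMb2 was at 0 and 5.97 against 230 and 179, whereas the other beta chain gene of H2-DM, H2-DMb1, was at 644 and 598 against 1095 and 904. Ciita was at 67.6 and 82.5 against 89.3 and 44.8 and overlapped. Against the other WT cells, 9 of the 13 genes were higher, with a median log2 ratio of 3.60 beside -0.18 over all genes.

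The promoters of these genes are shown because the genes share a known promoter architecture, an X box read by the RFX factors followed by a Y box read by NF-Y, on which the CIITA protein acts. RefSeq (GRCm38.p6) windows of 250 bases before to 50 after the gene start were searched on both strands for the Y box CTGATTGG and for its shorter form TGATTGG, which it contains. Of the 8 MHC class II genes with an entry, 4 held the Y box and 7 the shorter form, which 4.1% and 7.82% of all 32851 windows held. The core of the X box, searched as AGNAAC, is common, with a match in 48.1% of windows. The core followed by the shorter Y box on the gene's strand, 15 to 40 bases from start to start, was found in 5 of the 8 genes and in 0.122% of all windows. A match is a description of letters and not a shown binding site. The 120 bases around the Y box of 4 genes follow, 5′ to 3′ on the strand of the gene, with the matches in capitals. H2-Eb1 and H2-Aa stayed high in Macrophages_1 while H2-Oa and H2-Ob were nearly silent there. H2-Eb1 is read from chr17:34305726-34305845 (+), H2-Aa from chr17:34287834-34287953 (-), H2-Oa from chr17:34092254-34092373 (+) and H2-Ob from chr17:34238766-34238885 (+).
H2-Eb1: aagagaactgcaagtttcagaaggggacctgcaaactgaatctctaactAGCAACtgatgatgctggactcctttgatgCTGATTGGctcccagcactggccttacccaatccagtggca
H2-Aa: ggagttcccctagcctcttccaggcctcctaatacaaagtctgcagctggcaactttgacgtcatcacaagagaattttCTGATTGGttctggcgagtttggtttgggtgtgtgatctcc
H2-Oa: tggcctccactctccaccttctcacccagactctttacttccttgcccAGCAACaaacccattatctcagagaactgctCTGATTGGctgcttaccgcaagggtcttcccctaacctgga
H2-Ob: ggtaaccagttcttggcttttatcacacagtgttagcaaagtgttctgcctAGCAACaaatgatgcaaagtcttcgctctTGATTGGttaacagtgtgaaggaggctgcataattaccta
In H2-Eb1, H2-Oa and H2-Ob the X box core starts 31, 32 and 29 bases before the shorter Y box. In H2-Aa these letters of the X box core were not found. All 4 windows hold the shorter Y box because they are shown around it, so its presence does not compare the high genes with the nearly silent ones. H2-DMa, at 725 and 587 CPM in Macrophages_1, had no shorter Y box in either of its windows.

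C1q and MHC class II were read in the same cells. A C1q UMI was found in 45 of 45 cells of WT 1 and 417 of 418 of WT 2, and a UMI of H2-Aa, H2-Ab1 or H2-Eb1 in 44 and 372. Both were found in 97.8% and 88.8%. With each cell thinned to 500 UMIs, which left out 1 and 12 shallower cells, both were found in 84.1% and 81.3%. In Macrophages_2, thinned likewise, they were found together in 0 and 2.08% of cells. With or without C1q, an MHC class II UMI was found in 64.4% and 80.2% of thinned Macrophages_2 cells, against 84.1% and 82% in Macrophages_1. The higher summed level of Macrophages_2 thus did not come with a larger share of such cells. In the largest stellate cluster, which should lack both, C1q was found in 0.248% and 0.813% of thinned cells and MHC class II in 0.373% and 1.03%. The unthinned medians of that cluster were 4478 and 3460 UMIs per cell. The C1q sum varied less among the cells than that of MHC class II: its 10th and 90th percentiles were 6795 and 25026 CPM in WT 1, and 7023 and 25170 in WT 2. The MHC class II percentiles were 482 and 59947 in WT 1, and 0 and 50137 in WT 2, where 46 cells had none.

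**Figure D2:**
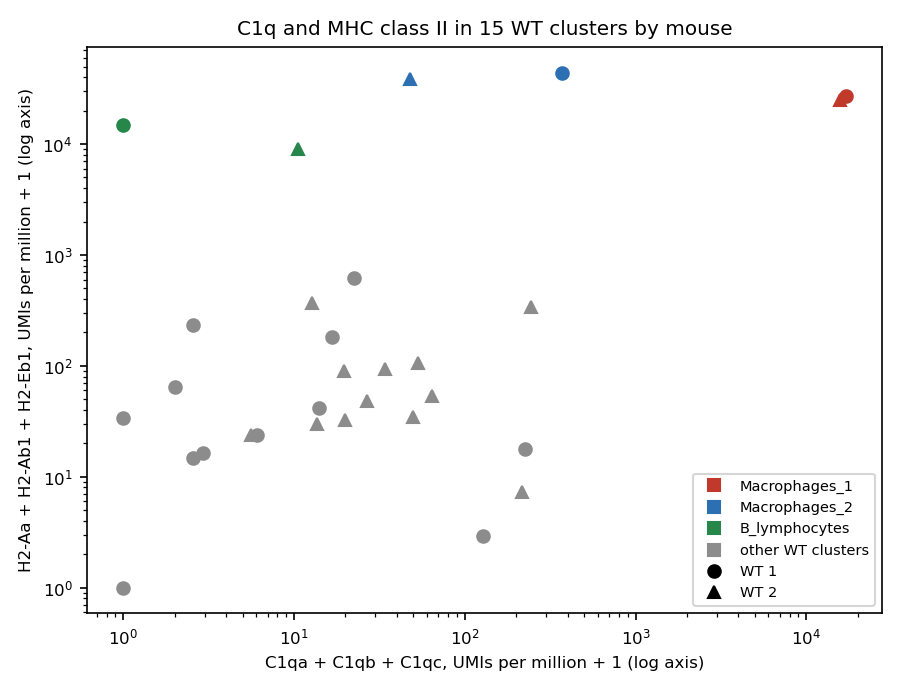
Summed C1q (horizontal) and MHC class II (vertical) CPM plus 1, both on log axes, for every WT cluster, with WT 1 as circles and WT 2 as triangles. Macrophages_1 (red) is the only cluster that is high on both axes, while Macrophages_2 (blue) and the B lymphocytes (green) are high in MHC class II and low in C1q.

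Chemokine and cytokine transcripts were abundant in the cluster. Of 24 chemokine and receptor genes, 23 had enough UMIs against Macrophages_2, and 11 were higher, 6 of them with 10 UMIs on both sides, and 3 lower (Ccl17, Ccl22 and Ccr7), none of them so. Ccl4, which attracts T cells and monocytes, was at 19360 and 15447 CPM against 1977 and 1164. Ccl7, a monocyte attractant, was at 3435 and 3468 against 27 and 171. Cxcl2, a neutrophil attractant, was at 14250 and 17501 against 3162 and 388. Tnf was at 1647 and 1020 against 127 and 57.6. Il1b was as high in Macrophages_2 (5854 and 1977 against 5680 and 3517). Of 16 cathepsin and lysosome genes, 8 were higher, all 8 with 10 UMIs on both sides, and 0 lower. The higher genes included the proteases Ctsd (1750 and 1344 against 208 and 213) and Ctsb (2948 and 2424 against 527 and 674). Of 15 interferon-stimulated genes with enough UMIs, 7 were higher, 2 of them with 10 UMIs on both sides, Ifi27l2a and Isg15 (1323 and 845 against 192 and 186). Of 16 immediate early and stress genes, which enzymatic tissue dissociation can induce, 6 were higher, all 6 with 10 UMIs on both sides, and 0 lower. Atf3 was at 2927 and 3045 against 1296 and 821, but at 3139 and 2153 in the other WT cells. How much of the chemokine level came with dissociation was not tested.

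The cells of the 2 mice differed. Of 3058 genes with at least 50 UMIs in the cluster, 237 were at least 2-fold higher and 84 at least 2-fold lower in WT 2, and 74 and 3 of these were so in the other WT cells too. Spi1, the myeloid factor PU.1, was at 53.3 and 462 CPM in WT 1 and WT 2. It was at 2.12 and 18.9 in the other cells, so that as a plain ratio its gap was as large there. With 20 CPM added, its log2 ratio was 2.72 in the cluster and 0.81 in the other cells. Spp1, which encodes osteopontin, was at 1728 and 144, but 1 cell held 60.5% of its UMIs in WT 1. Arg1 was at 1067 and 6.96, from 3 cells of WT 1 and 2 of WT 2. Chil3 was at 338 and 0, and 1 cell held all 95 UMIs, so that it says nothing of the other cells. The cell cycle genes Mki67 (146 and 19.9) and Stmn1 (519 and 61.6) were also higher in WT 1. Over both mice, 20 cells of group 2 described below held 184 Stmn1 UMIs, 47 of them in 1 cell. Conversely, summed stellate and fibroblast genes were at 46.2 and 2779 and summed endocrine genes at 71.1 and 1090, higher in WT 2. Few cells carried these sums. Of the 1668 Dcn UMIs of WT 2, 1581 lay in the 17 cells of 1 sub-cluster, 14 of them scored as doublets, and 1 cell held 500 of the 502 Sst UMIs. With 1 mouse on each side these gaps have no replicate check, and the part that depth or library played was not tested.

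Clustered again on their own, the cells fell into 6 groups. Their number and membership moved with the setting, with 4 groups at a lower resolution or without doublets, 7 at a higher one, and 6 over the cells with at least 500 genes. The adjusted Rand index to the grouping described here, which is 1 for identical groupings, was 0.554 to 0.776. The main 3 shared C1qa (6711, 5441 and 8002 CPM), and group 1 had less MHC class II than groups 2 and 3. Group 1 (171 cells, 5 of WT 1) was led by Fcna, Cd209f, Cd209g, Lyve1 and Ednrb, and also held Timd4 and Folr2. Lyve1, a hyaluronan receptor of resident tissue macrophages, was at 1060 CPM against 70.1 in the other cells. In group 1 H2-Ab1 was at 2102 against 8723, and 63.2% of its cells had an H2-Ab1 UMI. Of the type 2 dendritic cell genes, Clec10a (875 against 90.1) and Cd209a (125 against 4) were higher there, and Tnip3 (10.4 against 272) lower. Group 2 (131 cells, 24 of WT 1) was led by Spp1, Tnip3, Clec4e, Il1b and Ccl5, but 1 cell held 294 of its 593 Spp1 UMIs. Il1b was at 5818 against 653, H2-Ab1 at 9851 against 5350 and Ccr2, the receptor by which monocytes enter tissue, at 200 against 72.4. Mki67 was at 102 against 8.04. Another cell cycle gene, Stmn1, had a UMI in only 15.3% of the cells of group 2. Group 3 (129 cells, 16 of WT 1) was led by Hspb1, Hspa1a, Gm8696, Dnajb1 and Cx3cr1, mostly heat shock genes. Cx3cr1, the fractalkine receptor, was at 345 against 80.7, Hspa1a at 8098 against 2059 and H2-Ab1 at 9065 against 6606. These genes defined the groups, so none was tested between them.

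The other 3 groups held cells of WT 2 only. Group 4 (17 cells) was led by the matrix genes Dcn, Mgp, Gsn, Clec3b and Serping1, and Scrublet scored 14 of them as doublets, droplets with 2 cells. Group 5 (10 cells, 6 doublets) was led by Clu, Pnliprp2, Gp2, Pdia2 and Spink1, mostly acinar genes. Group 6 (5 cells, 1 doublet) was led by Plvap, Gpihbp1, Fabp4, Mgll and Egfl7, mostly endothelial genes. In groups 5 and 6, 1 cell held 32.5% to 65% of the UMIs of each of these genes. All 3 still held C1qa (2642, 3579 and 5651 CPM). Over the whole cluster 0 of 45 and 24 of 418 cells were scored as doublets. Without groups 4 to 6 the comparison with Macrophages_2 gave 249 higher and 188 lower genes.

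**Figure D3:**
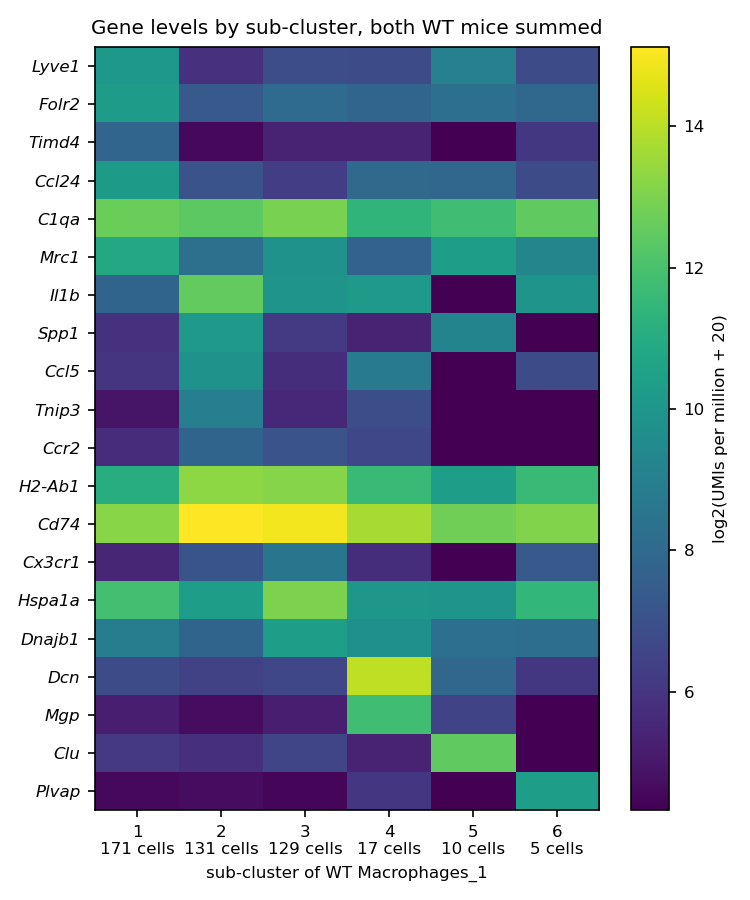
Gene levels, as log2 of CPM plus 20, in the 6 groups of WT Macrophages_1, with both mice summed and cell numbers under each column. C1qa is high in all 6, Lyve1 and Folr2 in group 1, Il1b and Spp1 (with 294 of its 593 UMIs in 1 cell) in group 2 and Hspa1a in group 3, while Dcn, Clu and Plvap each mark 1 of the small groups.

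Whether C1q cells with MHC class II were also found in the treated mice was first asked without the cluster names. Each cell was thinned to 500 UMIs, and C1q cells were those of any cluster with at least 3 C1q UMIs. In the WT mice, 34 of 40 and 318 of 381 C1q cells had an MHC class II UMI (85% and 83.5%, exact 95% intervals 70.2 to 94.3% and 79.3 to 87.1%). In i4F 1 and i4F 2 it was 6.23% of 2278 and 4.38% of 1280, but 74.2% of 229 in i4F 3 (68.1 to 79.8%). In the caerulein mice it was 7.72% of 5001 and 7.58% of 1821. Counting cells with at least 3 MHC class II UMIs, the shares were 72.5% and 70.9% in WT, 2.37%, 1.25% and 54.6% in i4F and 2.7% and 2.69% in caerulein. The median C1q cell held 13 and 9 MHC class II UMIs in the WT mice, 4 in i4F 3 and 0 in the other 4 treated mice. Thus i4F 3 lay below the WT mice and the other 4 far below. Of the WT C1q cells, 97.5% and 99.2% lay in Macrophages_1, which was singled out as high in H2-Eb1 and H2-Ab1. The high WT side is therefore a description and no independent support. The background, the share of stellate cells with an MHC class II UMI at the same depth, was 0.272% and 1.15% in WT, 1.29%, 1.22% and 7.42% in i4F and 0.802% and 0.301% in caerulein, so that it was highest in i4F 3. With 2 mice against 2 or 3, an exact permutation test over mice cannot reach 0.05, and none was run.

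Among thinned cells, 1.26% and 6.98% were C1q cells in WT, 25.9%, 17.6% and 3.7% in i4F and 36% and 28.2% in caerulein mice. Those with an MHC class II UMI were 1.07% and 5.83% of cells in WT, 1.61%, 0.771% and 2.75% in i4F and 2.78% and 2.14% in caerulein mice, and i4F 2 lay below both WT mice. With at least 3 such UMIs they were 0.911% and 4.95% in WT, 0.613%, 0.22% and 2.02% in i4F and 0.972% and 0.759% in caerulein mice, and i4F 1, i4F 2 and caerulein 2 lay below both WT mice. In shares of a tissue's cells, more C1q cells cannot be told apart from fewer other cells. In WT, 97.5% and 99.2% of the C1q cells lay in Macrophages_1. In i4F 1 and i4F 2, 94.9% and 96.1% lay in i4F Macrophages_1, where 3.79% and 3.17% had an MHC class II UMI. In i4F 3, 55% lay in Macrophages_3 (99.2% with MHC class II) and 38.9% in Macrophages_1 (40.4%). In the caerulein mice, 3.26% and 3.08% lay in the cluster named B lymphocytes, where 93.3% and 94.6% had an MHC class II UMI.

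**Figure D4:**
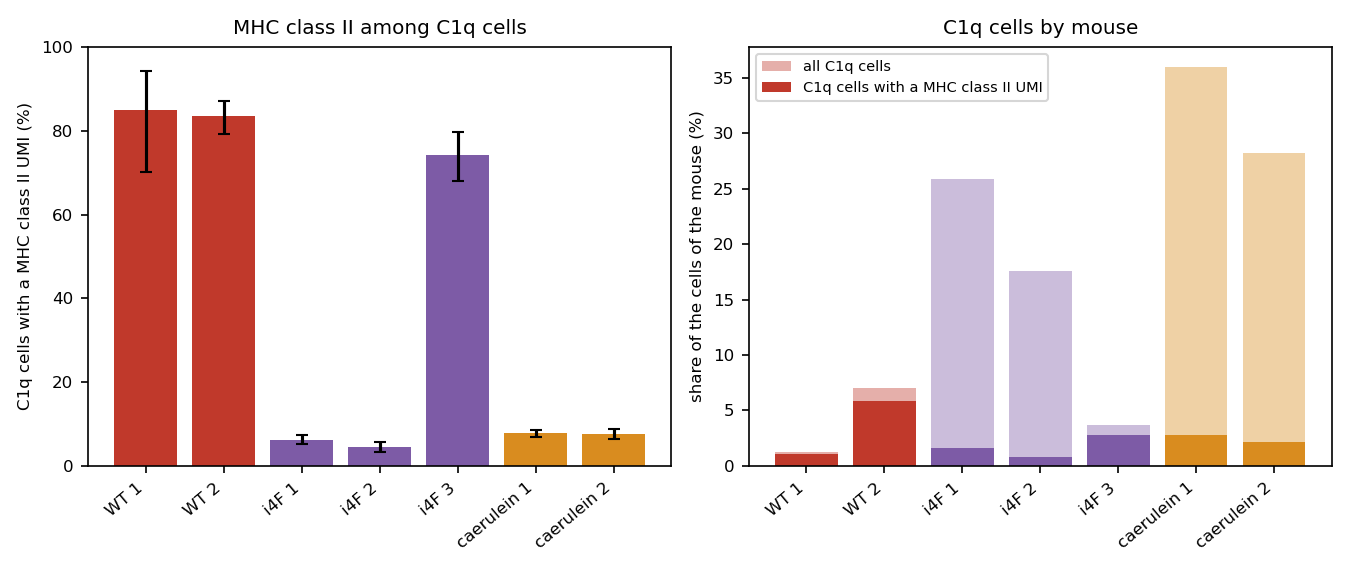
Left, the percent of C1q cells with an MHC class II UMI in each of the 7 mice, with exact 95% binomial intervals as bars. Right, C1q cells (pale) and those with an MHC class II UMI (dark) as percent of the cells of each mouse: WT 1, WT 2 and i4F 3 stand high on the left, and i4F 1, i4F 2 and both caerulein mice on the right. Most WT C1q cells lay in Macrophages_1, which was singled out by MHC class II genes.

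The caerulein cluster Macrophages_1 (3890 and 2076 cells) held C1q at levels that did not pass the test against the WT cluster, and almost no MHC class II. UMIs were summed per mouse and tested across all genes with edgeR's quasi-likelihood test, with Benjamini-Hochberg adjustment at 0.05. This comparison was added after the values above were seen. It cannot separate a change in cells from a change in which cells the cluster holds, and it sets doxycycline-treated against caerulein-treated mice. Of 9346 genes, 449 (4.80%) were higher and 726 (7.77%) lower in caerulein. C1qa was at 5639 and 4222 CPM in the caerulein mice against 6284 and 6146 in WT, a log2 difference of -0.30 ± 0.29 (SE; adjusted p = 0.529 with edgeR).

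Of 13 MHC class II genes, 9 were tested and 7 were lower, with 0 higher. All 7 save Ciita had 10 UMIs in every mouse on both sides. H2-Ab1 was at 41.2 and 47.7 CPM in caerulein against 7863 and 7069, a difference of -7.38 ± 0.33 (adjusted p = 0.000351 with edgeR). Cd74 was at 325 and 305 against 25989 and 26572. Ciita, with 0 and 0.24 against 67.6 and 82.5, also passed (adjusted p = 0.000831 with edgeR). The groups did not overlap in any of these genes. The remaining 2 tested genes, the lysosomal Ifi30 and Ctss, did not pass, at 1.08 ± 0.34 and 0.54 ± 0.37 (adjusted p = 0.0834 and 0.366 with edgeR). Mgl2, a galactose lectin, was at 0.287 and 0.24 against 434 and 407 (adjusted p = 0.00028 with edgeR). H2-Eb1, H2-Ab1, Cd74 and Mgl2 are the genes by which the WT cluster was singled out as high, so their lower level in another cluster is a description and no independent support. The other lower genes of the MHC class II list belong to the same set, so the count of 7 is likewise a description.

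Of 18 tested genes of the macrophage list, 5 were lower, 4 of them with 10 UMIs on both sides, and 1 higher. Lyve1 was at 3.73 and 2.4 CPM against 121 and 339 (adjusted p = 0.0031 with edgeR). Cd163, a haemoglobin scavenger receptor, was at 21.3 and 24.9 against 103 and 138. Csf1r, Mrc1 and Timd4 were the other 3. This holds for caerulein Macrophages_1 and not for all caerulein macrophages: in the second such cluster, Macrophages_2 (3099 and 676 cells), which was not tested, Cd163 was at 117 and 134 CPM, Mrc1 at 835 and 701 and Lyve1 at 131 and 63.8. Its H2-Ab1 was at 73.5 and 75.3, against 41.2 and 47.7 in Macrophages_1. Folr2 (334 and 311 against 331 and 432) and Adgre1 (274 and 322 against 313 and 278) overlapped between the groups. Trem2, a lipid receptor, was higher at 1402 and 1331 against 455 and 278 (adjusted p = 0.0145 with edgeR).

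Of 12 lipid-associated macrophage genes, 7 were higher and 2 lower, 6 and 2 of them with 10 UMIs on both sides. Gpnmb was at 387 and 479 CPM against 42.7 and 9.94, the latter from 2 and 7 cells. Fabp5, a fatty acid carrier, was at 3056 and 3755 against 437 and 325, and 1 cell held 60.2% of its UMIs in WT 1. Lpl and Cd36 were the 2 lower genes. Spp1 was at 8251 and 9058 against 1728 and 144 and did not pass (3.25 ± 0.99, adjusted p = 0.0788 with edgeR). Among 16 cathepsin and lysosome genes 4 were higher, all 4 with 10 UMIs on both sides, and 0 lower. Ctsd led in size (3.03 ± 0.30, at 11856 and 12986 against 1750 and 1344).

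Chemokine genes went the other way, with 10 of 20 lower, 9 of them with 10 UMIs on both sides, and 0 higher. Ccl4 was at 1204 and 914 CPM against 19360 and 15447 (adjusted p = 0.00256 with edgeR), and Cxcl10, a chemokine induced by interferon, at 103 and 116 against 2792 and 1299. Caerulein Macrophages_2 again differed, with Ccl4 at 6902 and 8771 and Cxcl2 at 23410 and 19756. Its chemokine genes summed to 52572 and 47379 CPM, near the 57255 and 49569 of WT, against 18098 and 13946 in caerulein Macrophages_1. Of 15 interferon-stimulated genes 9 were lower, 7 of them with 10 UMIs on both sides, and 0 higher. Ifit1 was at 4.67 and 5.03 against 224 and 182 (adjusted p = 0.000671 with edgeR). In caerulein Macrophages_2 Ifit1 was at 31.6 and 90, and the interferon-stimulated list summed to 5304 and 4966 CPM. That sum was 6014 and 5514 in WT, and 2615 and 2640 in caerulein Macrophages_1. Of 16 immediate early and stress genes 11 were lower, all with 10 UMIs on both sides, and 0 higher, among them Egr1 (42.2 and 44.6 against 1526 and 1563). Tnf was at 141 and 141 against 1647 and 1020, while Il10, an anti-inflammatory cytokine, was higher at 273 and 171 against 60.5 and 50.7, where 2 cells of WT 1 held its UMIs (adjusted p = 0.017 with edgeR). The immediate early genes fell beside the chemokines, and their part in the chemokine difference was not tested.

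**Figure D5:**
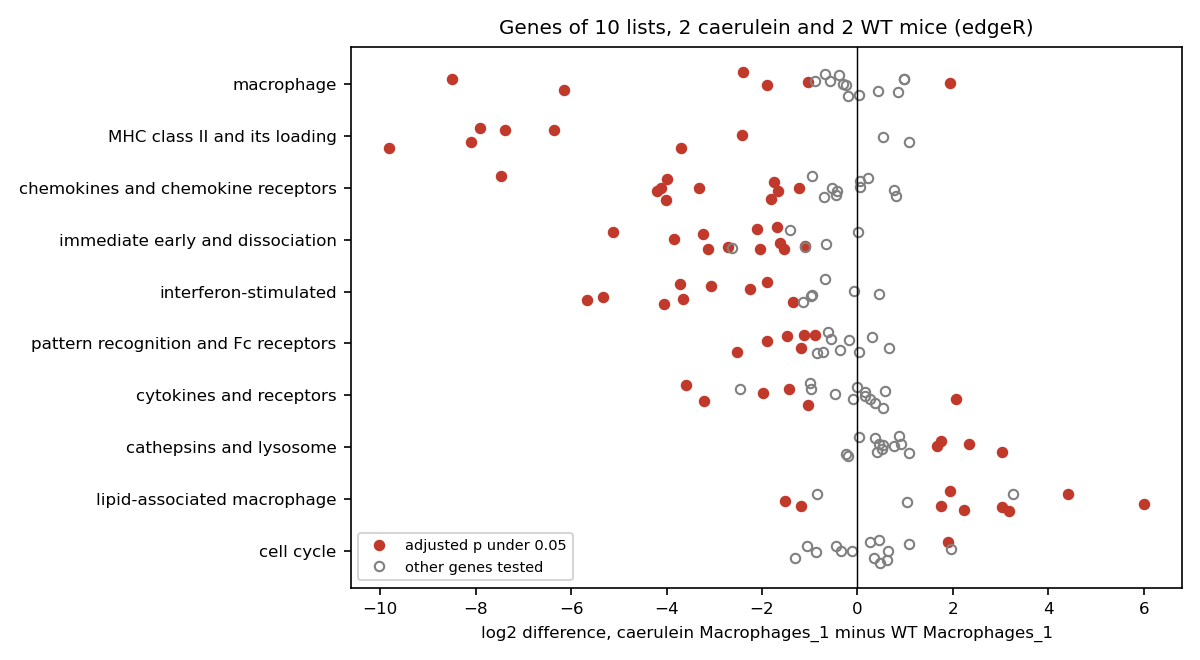
The log2 difference between caerulein and WT Macrophages_1 for each tested gene of 10 lists, fitted with edgeR on 2 mice a group, with genes past the adjusted p of 0.05 filled in red. MHC class II, chemokine, immediate early and interferon-stimulated genes lie mostly below 0, and lysosome and lipid-associated genes mostly above.

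By size, the leading higher genes were Gm2663, S100a9, Trem3, Dmkn and Mmp8, all without a UMI in the WT cells. S100a9, for one, was at 43.5 and 25.6 CPM in caerulein. The leading lower genes were Retnla, H2-M2, Mgl2, Sst and Ciita. Retnla, made by alternatively activated macrophages, was at 0.359 and 0 against 427 and 1460. Retnla, Mgl2, Sst and Ciita passed the filter on low counts only through WT, and could be called in this direction only. Sst, the islet hormone somatostatin, was at 0 and 0.719 against 7.11 and 499, but 1 cell of WT 2 held 500 of its 502 UMIs there, so that the level of WT 2 is that of 1 cell. All 4 tested endocrine genes passed as lower, of which Iapp alone had 10 UMIs on both sides, and 1 cell held 75 of the 79 Ppy UMIs and 44 of the 82 Ttr UMIs of WT 2. The 7 endocrine genes in the tables summed to 71.1 and 1090 in WT and to at most 7.43 in the caerulein cells. Their part in these calls was not tested. Without caerulein 1 there were 110 higher and 416 lower genes, without caerulein 2 163 and 378, without WT 1 1250 and 1217, and without WT 2 688 and 501. H2-Ab1 stayed between -7.38 and -7.22 in these fits. It is among the genes by which the WT cluster was singled out, so this is a description and no independent support.

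The i4F cluster Macrophages_1 (2921, 2735 and 183 cells) was compared in the same way, also after its values were seen, and shares its WT controls with the comparison above. This comparison, too, cannot separate a change in cells from a change in which cells the cluster holds. Of 7597 genes, 13 (0.171%) were higher and 37 (0.487%) lower. C1qa was at 5925, 3385 and 5287 CPM (log2 difference -0.35 ± 0.28, adjusted p = 0.476 with edgeR). H2-Ab1 was at 39.5, 36.4 and 362 against 7863 and 7069, below both WT mice in all 3 i4F mice, but did not pass (-5.79 ± 1.04, adjusted p = 0.0566 with edgeR). Here i4F 3 lay far above i4F 1 and i4F 2. H2-Ab1 is among the genes by which the WT cluster was singled out, so its lower level is again a description. Ciita, at 0.202, 0 and 6.17 against 67.6 and 82.5, and H2-DMb1, at 42.8, 35.2 and 96.6 against 644 and 598, passed as lower (adjusted p = 0.04 and 0.0411 with edgeR). Of 9 tested MHC class II genes these 2 were lower and 0 higher, and Ciita passed the filter on low counts only through WT. Both are of the same MHC class II list as H2-Ab1, so their lower level is likewise no independent support. Of 19 macrophage genes 0 passed in edgeR, with a median of -0.35, while 1 higher and 5 lower genes had an unadjusted p under 0.05 and DESeq2 called 1 gene.

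The leading higher genes were Csf3, Reg3g, Itgb7, rtTA and Uck2. Csf3, the granulocyte growth factor G-CSF, was at 181, 170 and 144 CPM against 0 and 0.994 (adjusted p = 0.011 with edgeR). rtTA is the transgene. In WT, Itgb7 had 1 UMI in each mouse and rtTA had 1 and 0. Csf3, Itgb7 and rtTA thus passed the filter on low counts only through the i4F cells, and could be called in this direction only. The leading lower genes were Ciita, H2-M2, P3h2, Clec4b1 and Chp2. Clec4b1, a lectin of myeloid cells, was at 1.01, 1.09 and 6.17 against 71.1 and 134. Like Ciita, Clec4b1 passed the filter on low counts only through WT, and could be called in this direction only. The counts rested on single mice. Without WT 2, i4F 1 or i4F 2 edgeR called 0 genes, where 1060, 465 and 460 higher and 571, 519 and 519 lower genes had an unadjusted p under 0.05. Without WT 1 there were 46 and 138 calls, and without i4F 3 278 and 388. The title prefix of the libraries is AL for WT 1 and the i4F mice and AM for WT 2 and the caerulein mice, and WT 2 is the only AM library in this comparison. A fit with the prefix as a term therefore sets WT 2 aside and leaves WT 1 alone against the i4F mice, so it is no check independent of the fit without WT 2. It also called 0 genes (751 higher and 539 lower at an unadjusted p under 0.05). With all mice, DESeq2 called 243 and 190.

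A further i4F cluster, Macrophages_3 (215, 87 and 282 cells), was taken for comparison with its high MHC class II already known, so that its MHC class II level is a description. H2-Ab1 was at 11098, 6267 and 9112 CPM and overlapped the WT mice. C1qa was at 1475, 1020 and 3280, below both WT mice, but did not pass (-1.69 ± 0.46, adjusted p = 0.0764 with edgeR). Of 6067 genes, 151 (2.49%) were higher and 137 (2.26%) lower. This comparison shares the same WT mice. It likewise cannot separate a change in cells from a change in which cells the cluster holds.

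Of 18 tested macrophage genes, 9 were lower in i4F Macrophages_3 and 0 higher, and 3 of the 9, Csf1r and Mrc1 among them, had 10 UMIs in every mouse on both sides. Adgre1 was at 24.4, 27.4 and 53 CPM against 313 and 278 (adjusted p = 0.0165 with edgeR), and Folr2 at 32.5, 9.15 and 46.3 against 331 and 432. Of 13 migratory dendritic cell genes, 7 were higher and 0 lower, but none of the 7 had 10 UMIs in every WT mouse, so they passed the filter through the i4F cells and their count is no support. Ccr7 was at 944, 1226 and 852 against 28.4 and 1.99 (adjusted p = 0.0165 with edgeR). Flt3 was at 48.7, 82.3 and 28 and had no UMI in WT, and was 1 of 4 higher genes among the 9 general dendritic cell genes tested, of which Traf1 and Napsa had 10 UMIs on both sides. H2-DMb2, H2-Oa and Ifi30 were higher among the 12 MHC class II genes and 0 were lower, and Ifi30 alone had 10 UMIs on both sides. H2-Oa was at 143, 77.8 and 127 against 7.11 and 1.99. Immediate early genes were lower in 6 of 16, all 6 with 10 UMIs on both sides, with Egr1 at 97.5, 146 and 293 against 1526 and 1563. In several of these genes i4F Macrophages_3 lay nearer to WT Macrophages_2. There Adgre1 was at 13.5 and 17.1, Flt3 at 70.3 and 32, Ccr7 at 400 and 930 and H2-Oa at 200 and 209. C1qa, at 143 and 2.13 in WT Macrophages_2, was higher in i4F Macrophages_3. Whether the i4F cluster holds cells like those of WT Macrophages_2 was not tested.

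Gpr171, P2ry10, 4833407H14Rik, Ltb and Apol7c led the higher genes of i4F Macrophages_3, and all 5 had no UMI in WT. Cd209g, Chp2, 2610203C22Rik, Cebpa and Hpgd led the lower ones. Cebpa, a myeloid transcription factor, was at 1.62, 0 and 2.89 CPM against 42.7 and 27.8. Cebpa and Cd209g passed the filter on low counts only through WT, and could be called in this direction only. The calls of this comparison depended on which mouse was left out. Without WT 1 there were 123 higher and 142 lower genes, without WT 2 there were 4 higher and 0 lower genes, without i4F 1 69 and 12, without i4F 2 0 and 0 (526 and 602 at an unadjusted p under 0.05), and without i4F 3 254 and 280. A term for the title prefix again sets WT 2 aside, and gave the same 4 and 0 as the fit without that mouse. WT 2 has the larger sum of UMIs in the WT cluster (1005840 against 281197) and holds 418 of its 463 cells, although its median cell is shallower.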

How the data were processed

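The deposited count tables hold the authors' UMI counts per gene and cell, 1 table per condition, without normalization; their sums equalled the deposited totals in every cell. Per the methods and the submitters' processing notes, the authors aligned 10x Genomics reads to GRCm38 (mm10) with Cell Ranger, corrected ambient RNA with SoupX (stated for WT and i4F) and clustered each condition in Seurat. Whether the deposited counts precede or follow SoupX is not stated. The authors' metadata also give each cell's percent of mitochondrial UMIs, at most 5% in every library. CPM were computed here, over the genes with a row. Of the acinar list 2 of 16 genes, and of the endocrine list 7 of 10, had a row in any condition. A gene without a row in 1 condition was counted as 0 there. Libraries held 15469018 to 64784216 UMIs and 4327 to 15138 cells.

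UMIs were summed per mouse and cluster. Clusters of the same WT mice were described with ratios of CPM and not tested, since they were made from these genes. Conditions were compared with edgeR 4.0.16 in R (quasi-likelihood test, TMM, filterByExpr), over mice with at least 20 cells in the cluster. The SE was derived from that test, as the absolute log2 difference divided by the square root of its F statistic. DESeq2 1.42.0, other filters and cell sets, and leaving out each mouse were tried as alternatives. On simulated data with 200 genes changed 4-fold, edgeR recovered 62.5% (i4F Macrophages_3), 70.5% (i4F Macrophages_1) and 75.5% (caerulein) of them. Whether the simulated mice varied as much as the real ones was not tested, so these shares are not detection rates for the real fits. In the real i4F Macrophages_1 fit H2-Ab1 did not pass, at 39.5, 36.4 and 362 CPM against 7863 and 7069 in WT. Sub-clusters and doublets came from scanpy 1.11.5 (2000 variable genes, 20 components, Leiden resolution 0.5; Scrublet). Because Scrublet's own threshold called 2 of 4327 cells in WT 1, the highest-scoring cells of each library were taken, in a share that grew with its cell number. Gene sets, members and tests were chosen with earlier results of these data known. Named genes were list members with the most UMIs, the 10 leading genes either way, and up to 5 leading genes per tested direction that did not overlap between mice, and other genes were chosen after their values were seen.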

Additional observations from a re-analysis of the deposited data

How the results depend on the processing

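Against Macrophages_2, 379 genes were higher and 270 lower with 5 CPM added, 147 and 79 with 50 added, and 132 and 81 with at least 50 UMIs per mouse. In single mice the counts were 401 to 550 and 376 to 403. Against the other WT cells, 2588 were lower with 5 added, and 299 higher and 465 lower with 50 added; single mice gave 611 to 661 higher and 1224 to 1885 lower. The share of the cluster was 38.1% of immune-named clusters (20.2% in WT 1 and 56% in WT 2), and 1.04 to 6.61% of all cells in single mice. For i4F Macrophages_3 there were 482 higher and 409 lower genes without the filter and 4 and 0 with the title prefix as a term, and leaving out each mouse gave 0 to 254 and 0 to 280. For i4F Macrophages_1, DESeq2 called 243 higher and 190 lower genes, no filter 631 and 735, cells with at least 500 genes 30 and 85, doublets removed 35 and 92, no groups 4 to 6 40 and 96, the title prefix 0 and 0, and single mice left out 0 to 278 and 0 to 388. For caerulein, no filter gave 1267 and 1263, the title prefix 1109 and 1090, and single mice left out 110 to 1250 and 378 to 1217. Where a WT or caerulein mouse was left out, the lone mouse was assumed to vary like the others. The title prefix sets aside WT 2 in the i4F comparisons and WT 1 in the caerulein comparison, so it rests on 1 WT mouse, as do the fits without those mice. The causes were not tested.

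Replicate numbers are shared between groups, but nothing in the labels ties same-numbered mice together. Deviations from the group means correlated at 0.02 and -0.16 (i4F Macrophages_3), 0.14 and -0.19 (i4F Macrophages_1) and -0.30 and -0.30 (caerulein). The deviations of 2 mice in a group mirror each other, so these values are not separate checks of pairing. In caerulein the 2 values are the same by construction, and the crossed pairs gave 0.30. With the number as a replicate block, 279 higher and 252 lower, 306 and 397, and 64 and 272 genes were called. With crossed pairs in caerulein, 635 and 876 were called. Of the named genes followed through all alternatives, none that passed in the main fit reversed. Among their values, 213 kept their side of the threshold, 14 gained it and 7 lost it in caerulein, against 201, 39 and 5 in i4F Macrophages_1 and 189, 24 and 34 in i4F Macrophages_3. A change of sign in a gene that had not passed in the main fit was counted as kept. Depth limits the small sums most: 3 UMIs are 10.7 CPM in WT 1 and 13.7 CPM in i4F Macrophages_3 of i4F 2.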
